A study of Danio rerio with 28 samples.

Results

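The expression of 5 epithelial genes was followed in zebrafish hearts after injury: *epcam* (ENSDARG00000040534), *cldn7b* (ENSDARG00000014047), *cldne* (ENSDARG00000043128), *krt5* (ENSDARG00000058371) and *krt15* (ENSDARG00000036840). They are 5 of the 32520 genes listed in the count tables. They were selected on the values of these libraries, as epithelial genes whose levels appeared to rise soon after injury, so their levels relative to the uninjured heart are given as a description with no test. The selection names no difference between genotypes, and the comparisons between genotypes, in the time course and in whole hearts, were tested, with the limit that earlier results of these data were known when the genes were chosen. A further limit is that all but *krt15* passed the filter on low counts, in the time course, through the injured groups where they were high. *epcam*, *cldn7b*, *cldne* and *krt5* did appear early after injury. *krt15* did not: it was abundant in the uninjured ventricle and lower at 8 hours post injury (hpi) in both genotypes.

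RNA was sequenced from adult zebrafish of 4 to 6 months in 2 experiments. In the time course, about 20% of the ventricular apex was resected, and the injured zone was collected at 8 hpi and at 1, 3, 7 and 15 days post injury (dpi), with the apex of uninjured fish as the control, from wild-type (WT) and *thraa*+/- fish. In the other experiment, uninjured hearts of WT fish and of fish labelled homozygous for *thraa* (*thraa*-/-) were sequenced without resection, as entire hearts by the sample titles, although the extraction text speaks of ventricles. Each group held 2 libraries, 24 in the time course and 4 of whole hearts, and tissue from at least 5 fish was pooled for a library. The mutant line carries a short insertion in *thraa*, a gene of thyroid hormone receptor alpha, which truncates the protein, and it is a model of reduced receptor function in every tissue rather than in the heart alone. The sample labels of the time course call the mutants knockouts, and that they were heterozygotes is taken from the series' design text and the paper. Heterozygotes were used for injury because most homozygotes died soon after it.

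Epithelial sheets are held together by a small set of proteins that these genes encode. *epcam* encodes the epithelial cell adhesion molecule, a surface protein of most epithelia, and *cldn7b* and *cldne* encode claudins, the membrane proteins that seal tight junctions between neighbouring cells. *krt5* and *krt15* encode keratins, which pair as type II and type I chains into the intermediate filaments of epithelial cells. In mammals, *KRT5* and *KRT15* are keratins of the basal layer of stratified epithelium such as the epidermis. Cardiomyocytes form none of these sheets, whereas the heart is covered by the epicardium, a mesothelium that expresses keratins of simple epithelia.

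The libraries held 13692204 to 18775025 counts in the time course and 13656671 to 16532401 in the whole hearts. The summed level of 4 cardiomyocyte markers was 16200 to 73300 CPM (read counts scaled to a common library total, with trimmed mean of M-values, or TMM, factors) in every time-course library, so the tissue carried the markers of its label. An insertion leaves the transcript countable, and 2 identifiers carry the receptor's symbol THRA in the annotation. ENSDARG00000000151 had 45 to 82 counts in the 12 WT libraries and 32 to 105 in the 12 *thraa*+/- libraries, which overlap, and 80 to 99 in the WT and 143 to 202 in the *thraa*-/- whole hearts, which do not, and it does not check the genotype. The variance between replicate libraries for the median gene was 1.77 to 6.04 times that of counting in the time course, highest in *thraa*+/- hearts at 8 hpi, and the p-values measure the spread between such pools.

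*epcam*, which was not detected in the uninjured apex, was present from 8 hpi to 3 dpi and nearly absent again at 7 dpi. It had 0 counts in each of the 4 libraries of uninjured apex, though the uninjured whole hearts of the other experiment held 6 to 99 counts. In WT hearts it reached 26.6 and 28.6 CPM at 8 hpi, 35.2 and 37.2 CPM at 1 dpi and 4.48 and 3.25 CPM at 3 dpi. Against a floor of 3 counts over the uninjured group, its level was at least 180-fold higher at 8 hpi, and the bound at 1 dpi was 237-fold. The levels in *thraa*+/- hearts were 28.4 and 36.4 CPM at 8 hpi, 107.1 and 102.6 CPM at 1 dpi and 38.6 and 37.6 CPM at 3 dpi, at least 214-fold, 698-fold and 253-fold above the same floor. Each genotype then held 0 and 2 counts at 7 dpi. At 15 dpi the WT libraries held 1 and 0 counts and the *thraa*+/- libraries 1 and 7.

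The claudins also appeared at 8 hpi, and in WT both were nearly absent by 3 dpi, when *epcam* still held 145 counts. *cldn7b* had 1 and 0 counts in the uninjured libraries of each genotype. In WT hearts it had 10.6 and 14.6 CPM at 8 hpi and 8.29 and 10.7 CPM at 1 dpi, and at 3 dpi it held 8 and 1 counts. The *thraa*+/- libraries had *cldn7b* at 9.64 and 11.3 CPM at 8 hpi, 33.6 and 26.9 CPM at 1 dpi and 11.1 and 10.8 CPM at 3 dpi. The ratio to the uninjured group, which held 1 count in all, was 248 in WT at 8 hpi, with a 95% counting interval of 44.2 to 9810. *cldne*, which had 2 and 0 counts in uninjured WT and 0 in both *thraa*+/- libraries, was highest in WT at 8 hpi, with 24.9 and 24.8 CPM, against 6.14 and 6.78 CPM at 1 dpi. Its WT libraries held 0 and 3 counts at 3 dpi. The *thraa*+/- libraries had *cldne* at 14.8 and 14.9 CPM at 8 hpi, 18.9 and 18.1 CPM at 1 dpi and 1.80 and 2.78 CPM at 3 dpi. From 7 dpi on, *cldn7b* had at most 7 counts and *cldne* at most 2 counts in any library.

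*krt5* had the same onset at a far higher level. It held 2 to 8 counts in each library of uninjured apex. In WT hearts it had 1236 and 1263 CPM at 8 hpi, 699.5 and 709.2 CPM at 1 dpi and 12.4 and 13.1 CPM at 3 dpi. The *thraa*+/- libraries had *krt5* at 837.4 and 919.2 CPM at 8 hpi, 3099 and 3168 CPM at 1 dpi and 3348 and 3444 CPM at 3 dpi. The fitted log2 fold change (log2FC, with its standard error, SE) over the uninjured group was 11.55 (SE 0.17) in WT and 10.62 (SE 0.16) in *thraa*+/- hearts at 8 hpi, and 4.94 and 12.57 at 3 dpi. It did not return to the level of the uninjured apex within the time course. At 15 dpi it was at 2.98 and 2.49 CPM in WT and 2.18 and 3.15 CPM in *thraa*+/- hearts. This was above each library of uninjured apex, which held at most 8 counts and 0.814 CPM. Uninjured whole hearts, from the other experiment, held *krt5* at 12.2 and 2.53 CPM in WT and 1.64 and 0.5455 CPM in *thraa*-/- fish.

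*krt15* had a different course. It was at 373.7 and 364.7 CPM in uninjured WT and 675.9 and 651.4 CPM in uninjured *thraa*+/- ventricles. At 8 hpi it was at 103.8 and 114.8 CPM in WT and 109.2 and 132.8 CPM in *thraa*+/- hearts, a log2FC of −1.76 (SE 0.07) and −2.46 (SE 0.07) from uninjured. The level then climbed to 676.5 and 674.2 CPM in WT at 7 dpi, and in *thraa*+/- hearts it was 388.6 and 386.0 CPM at 1 dpi and 618.9 and 637.2 CPM at 3 dpi. The lower level at 8 hpi held under every scaling tried, with log2FC values of −1.19 to −1.81 in WT and −1.98 to −2.47 in *thraa*+/- hearts. The direction at later times did not: in *thraa*+/- hearts at 3 dpi the log2FC was −0.08, and it was 0.69 when libraries were scaled by their total counts and 0.62 on log2(TPM + 1), where TPM is RSEM's abundance scaled for transcript length and to a common total. Scaling by total counts moved the median of all genes up by 0.41 to 0.90 in the comparisons with uninjured hearts.

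**Figure D1:**
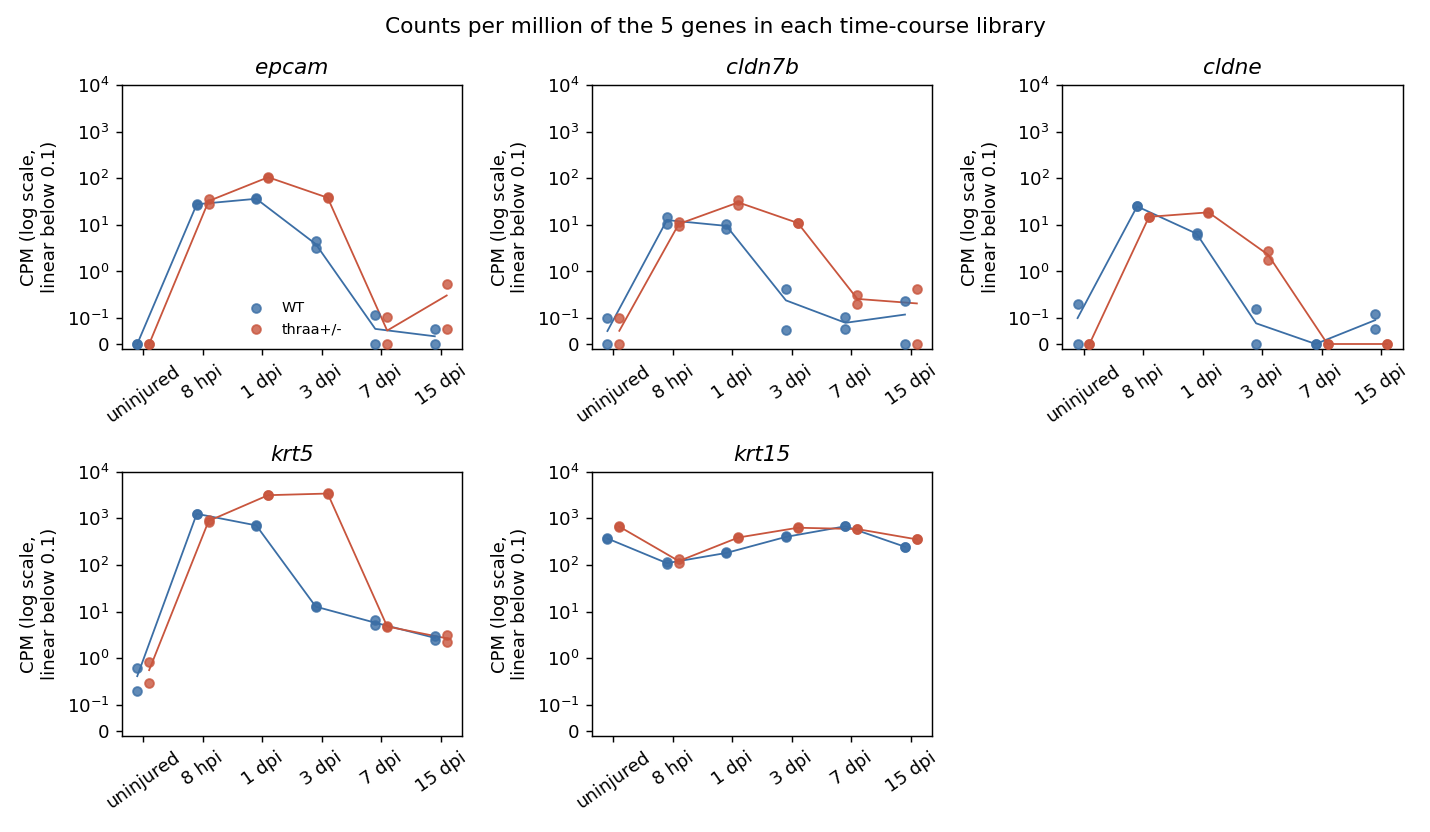
CPM (log scale that is linear below 0.1) of each of the 5 genes by time, with a point for each library and a line through the 2-library means, for WT (blue) and *thraa*+/- (red) hearts. *epcam*, *cldn7b*, *cldne* and *krt5* are near 0 without injury and high at 8 hpi in both genotypes, and at 3 dpi the *thraa*+/- points of *krt5* sit at 3348 and 3444 CPM against 12.4 and 13.1 CPM in WT, while *krt15* is lowest at 8 hpi.

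All 5 genes passed the filter on low counts in both experiments.

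Per transcript length, *krt5* was the highest of the 5 genes in both genotypes at 8 hpi and 1 dpi, and in *thraa*+/- hearts also at 3 dpi. In WT hearts at 8 hpi its mean level was 531.4 TPM, against 77.0 TPM for *krt15*, 23.0 TPM for *epcam*, 12.4 TPM for *cldne* and 6.35 TPM for *cldn7b*. In *thraa*+/- hearts at 3 dpi it was 1573 TPM, rank 126 of the 32520 genes by mean TPM, and *krt15* was at 480.5 TPM, *epcam* at 34.8 TPM, *cldn7b* at 5.99 TPM and *cldne* at 1.24 TPM. *krt15* was above *krt5* in the other groups, as in uninjured WT ventricles, at 177.3 against 0.190 TPM, and in WT at 3 dpi, at 318.2 against 6.15 TPM.

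The order of the 12 groups differed between the genes. *epcam* was highest in *thraa*+/- hearts at 1 dpi, then at 3 dpi, and then in WT at 1 dpi, *thraa*+/- at 8 hpi and WT at 8 hpi, and within these last 3 groups neighbouring ranges overlapped. *cldn7b* was also highest in *thraa*+/- hearts at 1 dpi, and the next 4 groups, WT at 8 hpi, *thraa*+/- at 3 dpi and 8 hpi, and WT at 1 dpi, overlapped with their neighbours. *cldne* was the one claudin whose highest group was WT, at 8 hpi, followed without overlap by *thraa*+/- at 1 dpi, *thraa*+/- at 8 hpi, WT at 1 dpi and *thraa*+/- at 3 dpi. For *krt5* the order was *thraa*+/- at 3 dpi, *thraa*+/- at 1 dpi, WT at 8 hpi, *thraa*+/- at 8 hpi and WT at 1 dpi, also without overlap. For *krt15* the top groups were WT at 7 dpi and uninjured *thraa*+/-, which overlapped, and the bottom ones were both genotypes at 8 hpi, which overlapped as well.

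The 4 early genes did not keep fixed proportions. The ratio of *krt5* to *epcam* counts was 44.1 and 46.5 in the WT libraries at 8 hpi, 19.1 to 19.9 at 1 dpi and 2.76 to 4.05 at 3 dpi. The same ratio in *thraa*+/- hearts was 25.2 to 29.5, then 28.9 to 30.9, then 86.7 to 91.6. The 2 genotypes thus moved in opposite directions between 8 hpi and 3 dpi, and at no time did their ranges overlap. The ratio of *epcam* to *cldne* climbed in both, from 1.07 to 1.16 at 8 hpi to 5.49 to 5.73 at 1 dpi in WT, and from 1.92 to 2.45 to 5.66 to 5.67 in *thraa*+/- hearts. The ratio of *epcam* to *cldn7b* was steadier, between 1.96 and 4.24 in every library of both genotypes at 8 hpi and 1 dpi. Over the 24 libraries, which share the same injury times, log2 CPM of *epcam*, *cldn7b*, *cldne* and *krt5* correlated with Pearson's r of 0.90 to 0.96 (Spearman's rho 0.73 to 0.88) for each pair, and *krt15* had an r of −0.44 to −0.67 (rho −0.19 to −0.58) with each of them.

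Other epithelial genes were set beside the 5, from lists chosen with earlier results of these data known. Lists of genes of epithelial junctions and polarity, desmosomes and hemidesmosomes, other keratins, epithelial regulators, and skin surface and mucous products held 64 genes with a matching symbol, of which 57 passed the filter, which keeps a gene for the groups where it is present. A gene that is near 0 without injury passed through the injured groups and had to differ there, so the counts that follow describe the lists and support nothing. With the cutoffs used for all 17837 genes tested, 1 or more in absolute log2FC and an adjusted p-value below 0.05 (edgeR quasi-likelihood test), 46 were called higher and 4 lower in WT hearts at 8 hpi than without injury, beside 16.5% and 12.5% of all genes. The count of higher genes in WT was then 41 at 1 dpi, where 14.8% of all genes were, 15 at 3 dpi against 20.8%, 7 at 7 dpi against 24.2% and 6 at 15 dpi against 11.3%. In *thraa*+/- hearts 44 were higher and 3 lower at 8 hpi, beside 17.5% and 12.9% of all genes, and 49 were higher at 1 dpi against 16.8% of all genes, 46 at 3 dpi against 19.2%, 10 at 7 dpi against 22.4% and 11 at 15 dpi against 7.88%. The median log2FC of the 57 genes was 5.52 in WT at 8 hpi, beside 0.09 over all genes tested, and 1.21 at 3 dpi, beside 0.18. In *thraa*+/- hearts it was 4.46 at 8 hpi, beside 0.04, and 4.77 at 3 dpi, beside 0.11. With at least 10 counts in every library, 15 of the list genes were tested, and 7 of them were higher in WT at 8 hpi. The WT count at 3 dpi was 27 with total-count scaling and 9 on log2(TPM + 1). The shares of all genes above belong to the main fit and not to these settings. Total-count scaling also moved the median log2FC of all genes up by 0.81 in that comparison.

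Of 16 tested junction genes, 14 rose in WT at 8 hpi, among them *cldnb*, another claudin, from 0 CPM in both uninjured libraries to 40.1 and 39.8 CPM, and *cldni*, from 0.300 and 0 CPM to 29.4 and 35.5 CPM. The 1 that fell was also a claudin, *cldn7a*, from a mean of 12.2 to 1.48 CPM (log2FC −3.04). All 13 tested regulators rose in WT at 8 hpi, where 16.5% of all genes did. *tp63*, the transcription factor of basal epidermal cells, went from 5.90 and 5.31 CPM to 33.9 and 32.3 CPM, and *tfap2c*, an early ectodermal factor, from 0.6 and 0 CPM to 12.2 and 8.77 CPM. In the desmosome list, 7 of 9 rose, such as *pkp3a*, a plakophilin of the desmosomal plaque, from 0 and 0.104 CPM to 70.7 and 67.6 CPM, and *dsg2.1*, a desmosomal cadherin, from 3.30 and 3.43 CPM to 77.0 and 71.7 CPM. The 1 that fell was *pkp2*, from a mean of 27.7 to 7.96 CPM (log2FC −1.8). *agr2*, of mucus-secreting cells, went from 0.6 and 0.104 CPM to 21.1 and 19.9 CPM.

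The other keratins were divided. Of 12 tested, 6 rose and 2 fell in WT at 8 hpi, beside 16.5% and 12.5% of all genes. *krt8*, a type II keratin of simple epithelia, was present throughout, with 1955 CPM in both uninjured WT libraries and 1523 and 1564 CPM at 8 hpi, and so was *krt18a.1*, a type I keratin of simple epithelia, with 492.6 and 491.1 CPM and then 1162 and 1164 CPM. *krt94* shared the lower level of *krt15* at 8 hpi but not its later course, with 2051 and 2014 CPM without injury, 476.4 and 524.7 CPM at 8 hpi and 1130 and 1150 CPM at 7 dpi. *icn*, a calcium-binding protein of the skin list, and *llgl2*, a polarity gene, were likewise present without injury, at 316.3 and 276.6 CPM and at 43.2 and 34.8 CPM, as was the desmosomal cadherin *dsc2l*, at 62.3 and 58.3 CPM.

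**Figure D2:**
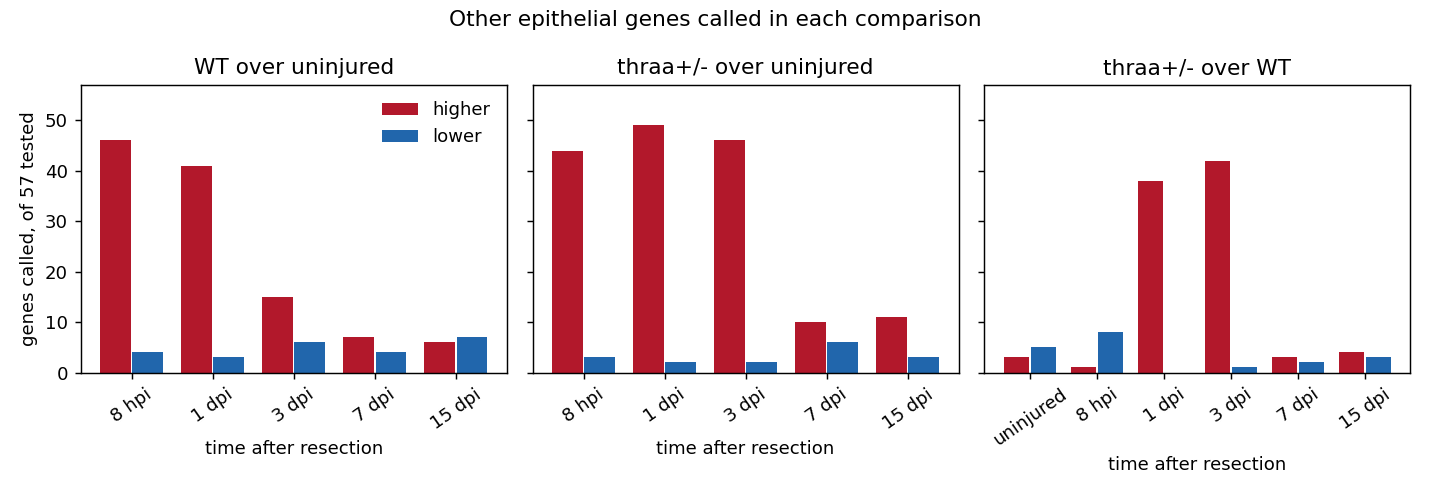
Number of other epithelial genes, of 57 tested, called higher (red) or lower (blue) in each comparison with edgeR, with the time after resection on the horizontal axis. In WT the count of higher genes goes from 46 at 8 hpi to 15 at 3 dpi, in *thraa*+/- hearts it is 46 at 3 dpi, and between genotypes 38 and 42 genes are higher in *thraa*+/- at 1 and 3 dpi.

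The genotypes were then compared at each time, which asks whether reduced thyroid hormone receptor function goes with a different level of these genes. The 4 early genes passed the filter through the injured groups where they were high. Their differences after injury, and the p-values with them, are therefore a description of these libraries. Without injury none of the 5 was called, where 5.68% of all genes were called higher and 5.79% lower in *thraa*+/- hearts. *krt15* differed below the fold cutoff, with both *thraa*+/- libraries above both WT libraries and a log2FC of 0.85 (SE 0.07, edgeR adjusted p = 4.67e-13). At an unadjusted p under 0.05 *krt15* was the 1 gene that passed, and DESeq2 and limma called none. The other 4 genes were near 0 in both genotypes.

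At 8 hpi none of the 5 was called either, beside 6.88% of all genes called higher and 3.67% lower. *epcam* and *cldn7b* overlapped between genotypes, with log2FC values of 0.23 (SE 0.15, edgeR adjusted p = 0.259) and −0.28 (SE 0.25, adjusted p = 0.444). *cldne* and *krt5* were lower in both *thraa*+/- libraries than in both WT libraries, by less than the cutoff, with log2FC values of −0.74 (SE 0.20, edgeR adjusted p = 0.00366) and −0.51 (SE 0.08, adjusted p = 1.05e-06). These were the 2 genes that passed an unadjusted p of 0.05, and DESeq2 and limma called none.

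At 1 dpi all 5 genes were higher in *thraa*+/- hearts, beside 4.9% of all genes called higher and 2.69% lower. No ranges overlapped. *epcam* was 2.90-fold higher, a log2FC of 1.53 (SE 0.14, edgeR adjusted p = 2.56e-10), *cldn7b* 3.19-fold (1.67, SE 0.24, adjusted p = 1.76e-06) and *cldne* 2.86-fold (1.52, SE 0.21, adjusted p = 5.43e-07). *krt5* differed most, 4.45-fold, a log2FC of 2.15 (SE 0.08, adjusted p = 1.78e-24). *krt15* was 2.14-fold higher (1.1, SE 0.07, adjusted p = 3.38e-16), close to the fold cutoff. Unlike the other 4 genes, it already differed in the same direction without injury, with a log2FC of 0.85 (SE 0.07). The call of *epcam* was lost with limma on log2(TPM + 0.1), with a log2FC of 1.58 and an adjusted p of 0.103.

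At 3 dpi, again as a description, the 4 early genes were higher in *thraa*+/- hearts by wider margins, beside 5.23% of all genes called higher and 3.34% lower. *krt5*, at 12.4 and 13.1 CPM in WT and above 3300 CPM in *thraa*+/- hearts, had a log2FC of 8.05 (SE 0.11, edgeR adjusted p = 3.83e-41), a 266-fold difference. *epcam* was 9.85-fold higher (log2FC 3.30, SE 0.18, adjusted p = 1.96e-15). *cldn7b*, with 9 counts over both WT libraries and 421 over both *thraa*+/- libraries, had a log2FC of 5.47 (SE 0.42, adjusted p = 5.85e-12). *cldne* had 3 counts in WT and 88 in *thraa*+/- hearts, a ratio of 28.6 with a 95% counting interval of 9.48 to 142 (edgeR adjusted p = 7.79e-09). *krt15* was higher in both *thraa*+/- libraries by less than the cutoff, with a log2FC of 0.65 (SE 0.07, adjusted p = 4.94e-10). In bulk tissue, more cells of a type and more RNA of a gene per cell cannot be told apart.

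At 7 and 15 dpi none of the 5 was called. At 7 dpi 2.94% of all genes were called higher and 3.31% lower, and at 15 dpi 4.12% and 3.74%. *krt5* had a log2FC of −0.26 (SE 0.14, edgeR adjusted p = 0.215) at 7 dpi and −0.07 (SE 0.20, adjusted p = 0.861) at 15 dpi, with the 2 WT libraries above the *thraa*+/- ones at 7 dpi and overlapping ranges at 15 dpi. *krt15* was lower in both *thraa*+/- libraries at 7 dpi, with a log2FC of −0.20 (SE 0.07, adjusted p = 0.0343), and higher at 15 dpi, with 0.53 (SE 0.07, adjusted p = 1.46e-07), both under the cutoff. At an unadjusted p under 0.05, 1 of the 5 genes passed at 7 dpi and 2, *krt15* and *epcam*, at 15 dpi, and DESeq2 and limma called none. The 3 junction genes held at most 10 counts a group at 7 and 15 dpi. *epcam*, with 8 counts in *thraa*+/- and 1 in WT hearts at 15 dpi, was called without *thraa*+/- replicate 1 (log2FC 3.87, adjusted p = 0.0149). With 2 libraries in each group, an exact two-sided permutation test cannot go below a p of 0.333, so these calls rest on the spread that edgeR shares across genes and groups.

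**Figure D3:**
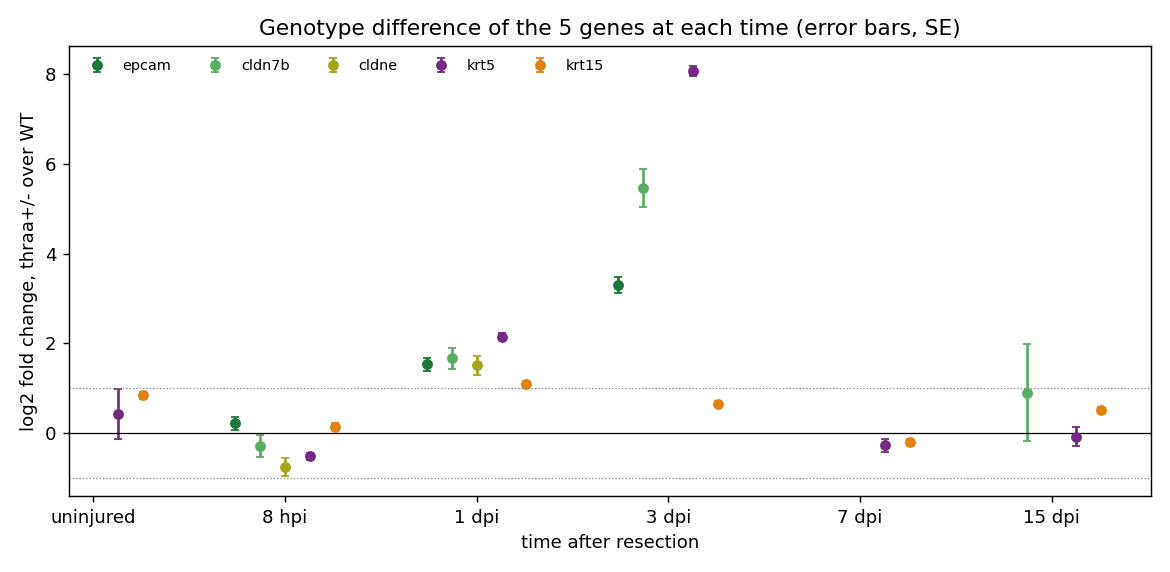
Log2FC of *thraa*+/- over WT hearts for each gene by time after resection, with the SE as bars and the cutoffs of 1 and −1 dotted. Values against a group of 3 counts or fewer are left out, *cldne* at 3 dpi among them. Values lie between −0.74 and 0.23 at 8 hpi, between 1.1 and 2.15 at 1 dpi, and reach 8.05 for *krt5* at 3 dpi.

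The wider epithelial lists were then compared between genotypes. Genes that were near 0 without injury passed the filter through the injured groups where they were high. These counts therefore also describe the lists and support nothing. Of the 57 tested genes, 38 were higher in *thraa*+/- hearts at 1 dpi (edgeR quasi-likelihood test), and 42 were higher and 1 lower at 3 dpi. The median log2FC was 1.56 at 1 dpi, beside −0.02 over all genes, and 3.31 at 3 dpi, beside −0.01. Over all genes the shares higher and lower were 4.9% and 2.69% at 1 dpi and 5.23% and 3.34% at 3 dpi. At 8 hpi 1 was higher and 8 were lower, beside 6.88% and 3.67% of all genes. The uninjured hearts had 3 higher, *tp63*, *pkp3a* and *elf3*, and 5 lower, beside 5.68% and 5.79%. Of these 3, *pkp3a* rested on 0 and 1 counts in WT against 6 and 19 in *thraa*+/- hearts. *elf3* was also near the floor, with means of 0 CPM in WT and 0.352 CPM in *thraa*+/- hearts. Among the 5 lower were *cldn7a* (log2FC −2.02), *spint1b* (−2.18) and *ppl* (−1.93). At 7 dpi 3 were higher and 2 lower, beside 2.94% and 3.31%, and at 15 dpi 4 and 3, beside 4.12% and 3.74%. Of the 13 tested regulators, 11 were higher at 1 dpi and all 13 at 3 dpi. *tfap2c* had 0.480 and 0.319 CPM in WT and 10.0 and 9.24 CPM in *thraa*+/- hearts at 3 dpi (log2FC 4.57, SE 0.39). It was near 0 without injury, so this is a description. *tp63* had 4.85 and 7.29 CPM in WT and 27.4 and 24.1 CPM in *thraa*+/- hearts at 3 dpi (log2FC 2.08, SE 0.14, edgeR adjusted p = 1.33e-15). *tp63* was already higher in *thraa*+/- hearts without injury, at 17.9 and 16.5 CPM against 5.90 and 5.31 CPM in WT (log2FC 1.62, SE 0.18, adjusted p = 6.49e-10).

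Of the other genes named from the lists, *cldnb* had 0.266 and 0.479 CPM in WT and 40.2 and 41.5 CPM in *thraa*+/- hearts at 3 dpi, a log2FC of 6.74 (SE 0.25). Both *cldnb* and *agr2* were near 0 without injury and passed the filter through the injured groups, so their values are a description. The 1 gene that was lower at 3 dpi was *agr2*, with 13.3 and 11.4 CPM in WT and 3.24 and 2.84 CPM in *thraa*+/- hearts (log2FC −2.02, SE 0.22), although it had been higher at 1 dpi (1.43, SE 0.17). Of the 12 tested other keratins, 5 were higher and 0 lower at 1 dpi, and 6 and 0 at 3 dpi, beside 4.9% and 5.23% of all genes higher. Their median log2FC was 0.93 and 2.63. The abundant keratins of simple epithelia, *krt8* and *krt18a.1*, did not follow. *krt8* had a log2FC of −0.29 at 1 dpi and −0.59 at 3 dpi, and *krt18a.1* of 0.60 and −0.16, all within the cutoff. *llgl2* and *icn* also stayed within it at both times, with 0.33 and 0.08, and 0.52 and 0.29.

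Markers of other cell types were set beside these differences. At 8 hpi, 9 of 12 tested leukocyte markers were higher in *thraa*+/- hearts, beside 6.88% of all genes. The 14 listed summed to 265 to 285 CPM in WT and 966 to 1150 CPM in *thraa*+/- hearts. At 1 dpi the summed level of 17 junction genes was 221 to 235 CPM in WT and 583 to 595 CPM in *thraa*+/- hearts. The 4 markers of epicardium and mesothelium summed to 314 to 316 and 257 to 263 CPM. Most of that sum was *aldh1a2*, with 296.2 CPM in WT and 243.6 CPM in *thraa*+/- hearts. The 14 leukocyte markers summed to 800 to 848 and 914 to 948 CPM, and 4 cardiomyocyte markers to 32900 to 35500 and 32700 to 32900 CPM. Of these 4, 1 was called higher at 1 dpi and 0 lower, beside 4.9% and 2.69% of all genes. It was *actn2b*, with a log2FC of 1.47 at 1 dpi, 1.84 at 3 dpi and 2.07 without injury. At 3 dpi the junction genes summed to 70.2 to 75.7 and 236 to 240 CPM, those of epicardium and mesothelium to 447 to 450 and 322 to 334 CPM, leukocyte markers to 1110 to 1170 and 867 to 902 CPM, and cardiomyocyte markers to 16200 to 17000 CPM in WT and 22600 CPM in both *thraa*+/- libraries. Of the 4 epicardial markers, 2 were called lower in *thraa*+/- hearts without injury, beside 5.79% of all genes. The 4 summed there to 249 to 253 CPM in WT and 75.5 to 81.0 CPM in *thraa*+/- hearts. At 8 hpi *tbx18* was called lower, and at 3 dpi *wt1b* was, beside 3.67% and 3.34% of all genes. At 7 dpi *wt1b* was called higher (log2FC 1.02, SE 0.12, edgeR adjusted p = 1.31e-08), beside 2.94% of all genes. The markers thus did not share a direction. Of 7 genes of skin surface and mucus, 6 were higher at 1 dpi, beside 4.9% of all genes. At 3 dpi 5 were higher and 1, *agr2*, was lower, beside 5.23% and 3.34% of all genes. In the uninjured apex, 7 of the 17 junction genes and 7 of 16 regulators had no count in either WT library, and at 8 hpi 1 of each. The 6 listed liver markers summed to 270 to 277 CPM in WT and 26.5 to 29.2 CPM in *thraa*+/- hearts without injury. The 6 summed to 211 to 219 and 66.3 to 67.1 CPM at 1 dpi, and to 563 to 575 and 145 to 147 CPM at 3 dpi. These sums do not stand for the list, as 4 of the 6 had no count in either uninjured WT library. Of 4 tested liver markers, 1 was higher and 1 lower in *thraa*+/- hearts without injury, beside 5.68% and 5.79% of all genes. At 1 dpi 1 was higher and 1 lower, beside 4.9% and 2.69%. At 3 dpi 0 were higher and 2 lower, beside 5.23% and 3.34%. Of 6 tested markers of fast skeletal muscle, 0 were called at 1 and 3 dpi. All but *ckma* were near the floor at these times, with group means of at most 0.744 CPM, so this says little. Without injury 3 of the 6 were higher in *thraa*+/- hearts and 0 lower, beside 5.68% and 5.79% of all genes. At 7 dpi 4 of the 6 were lower in *thraa*+/- hearts, beside 3.31% of all genes. The part that tissue of another origin in the sample, such as skin, has in these levels was not tested.

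The genes whose course was most like that of the 5 genes were also absent or nearly absent in the uninjured apex. Likeness was measured as Pearson's r over the 24 libraries between log2 CPM and the mean z score of the 5 genes, which the 4 early genes dominate. The 10 most alike genes with a symbol were *si:ch73-56d11.5* (r = 0.982), *klf5l* (0.980), *ANXA3* (0.977), *col17a1b* (0.974), *cldnb* (0.973), *ntrnl2* (0.973), *si:ch73-56d11.3* (0.973), *plekhg6* (0.970), *jac4* (0.970) and *si:dkey-248g15.3* (0.969). Among them, *col17a1b* encodes a collagen of hemidesmosomes, which anchor basal epithelial cells to their matrix, *cldnb* a claudin and *klf5l* a Krüppel-like transcription factor. Of these 10, 9 had 0 CPM in the uninjured WT apex and *plekhg6* had 0.05 CPM. *jac4* had 58.0 CPM in WT and 131.6 CPM in *thraa*+/- hearts at 1 dpi, and *ntrnl2* 44.9 and 110.8 CPM. These 10 were chosen over the same libraries, so their levels are a description.

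*krt15* had its own nearest genes. The highest were *pon3.1* (r = 0.919), *si:ch211-195b15.8* (0.891), *hp1bp3* (0.881), *pdia7* (0.873) and *si:dkey-57k2.6* (0.867), and none of these was among the 10 above. *pon3.1* had 4.44 CPM in uninjured WT hearts, 4.53 CPM at 1 dpi and 10.0 CPM at 7 dpi. For *krt5* alone the nearest were *ntrnl2*, *cldnb*, *jac4*, *st14a* and *si:ch73-56d11.5*, with r from 0.973 to 0.979.

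**Figure D4:**
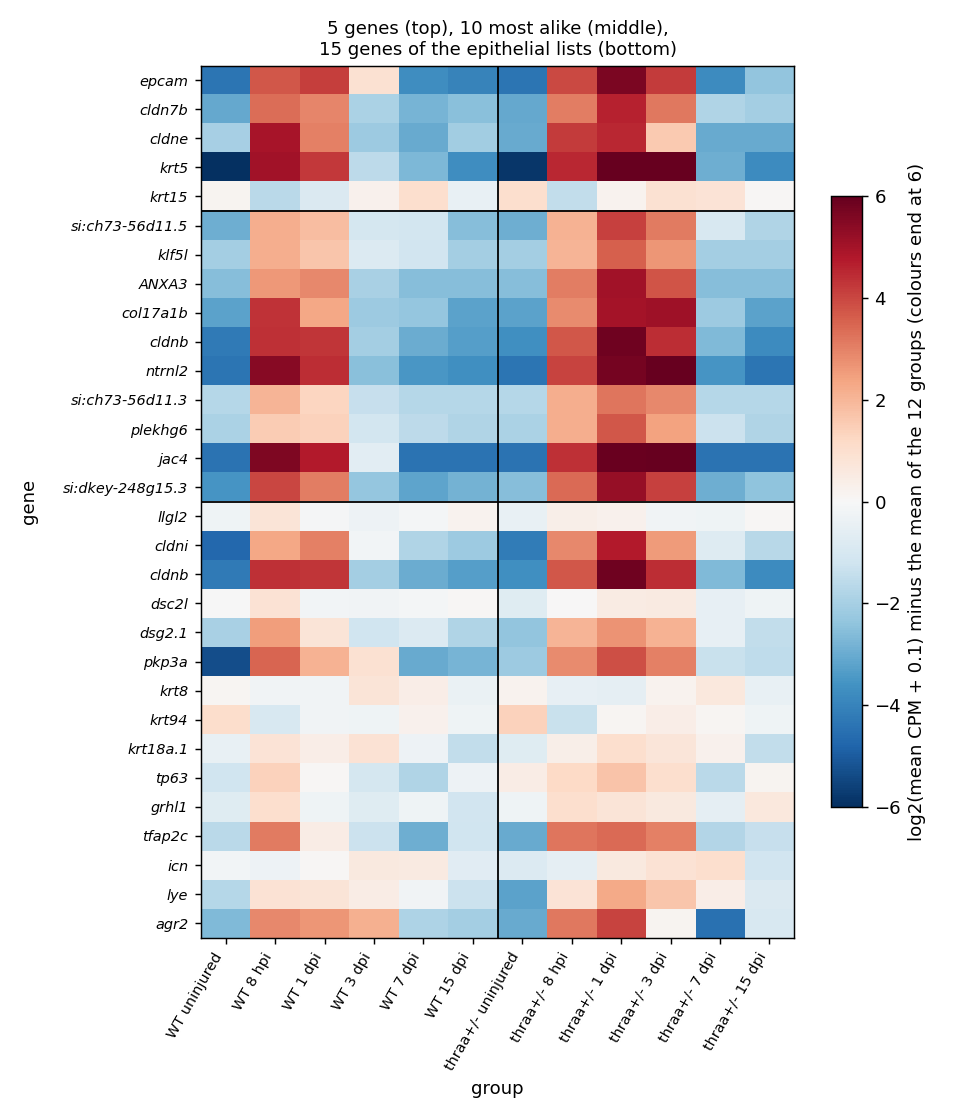
Log2 of the group mean CPM plus 0.1, less the mean of the gene over the 12 groups (colour, ending at 6 and −6), for the 5 genes, the 10 genes most like them and 15 genes of the epithelial lists, with *cldnb* in both of the last sets. The 10 alike genes are high, relative to their own means, at 8 hpi and 1 dpi in WT and from 8 hpi to 3 dpi in *thraa*+/- hearts. The colours do not show the level of a gene: *krt15*, *krt8* and *krt94* had counts in every group.

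In uninjured whole hearts of WT and *thraa*-/- fish, *krt15* was abundant and the other 4 genes were low. None of the 5 was called between genotypes at the cutoff of 1.5-fold used there, where 9.66% of 15793 genes were called higher and 9.54% lower in *thraa*-/- hearts. *krt15* had 767.2 and 884.1 CPM in WT and 1030 and 886.3 CPM in *thraa*-/- hearts, whose ranges did not overlap, with a log2FC of 0.22 (SE 0.11, edgeR adjusted p = 0.197). This depended on the scaling: in TPM the ranges overlapped, with 613.0 and 694.6 in WT and 670.7 and 560.5 in *thraa*-/- hearts. The log2FC was −0.04 with total-count scaling and −0.09 on log2(TPM + 1). *krt5* had 12.2 and 2.53 CPM in WT and 1.64 and 0.545 CPM in *thraa*-/- hearts, without overlap, and a log2FC of −2.74 (SE 1.14, edgeR adjusted p = 0.205). At an unadjusted p under 0.05 none of the 5 passed, and DESeq2 and limma called none. Without WT replicate 2, *krt5* (log2FC −3.47) and *cldne* (−2.17) were called.

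For *epcam*, *cldn7b* and *cldne*, the 2 whole-heart libraries of a genotype differed by a larger fold than the genotype means did. Replicate 1 was the higher one for *epcam*, *cldn7b*, *cldne* and *krt5* in both genotypes. *epcam* had 99 and 7 counts in the WT libraries and 32 and 6 in the *thraa*-/- libraries, *cldn7b* 28 and 1 and then 21 and 7, and *cldne* 50 and 2 and then 18 and 4. Of the 31 genes of the epithelial lists that passed the filter there, 24 were higher in replicate 1 than in replicate 2 in WT and 22 in *thraa*-/- hearts. The share over all genes tested there is not given, so this is no trait of the lists. Without WT replicate 1 the log2FC of *cldn7b* turned from −0.05 to 3.65 (SE 1.35, edgeR adjusted p = 0.0314), and those of *epcam* and *cldne* turned from −1.47 and −1.23 to 1.42 and 2.39, which were not called. A genotype difference of these 3 genes in whole hearts was therefore not detectable with these libraries. Of the lists, 2 of the 31 genes were higher and 2 lower in *thraa*-/- hearts, beside 9.66% and 9.54% of all genes.

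**Figure D5:**
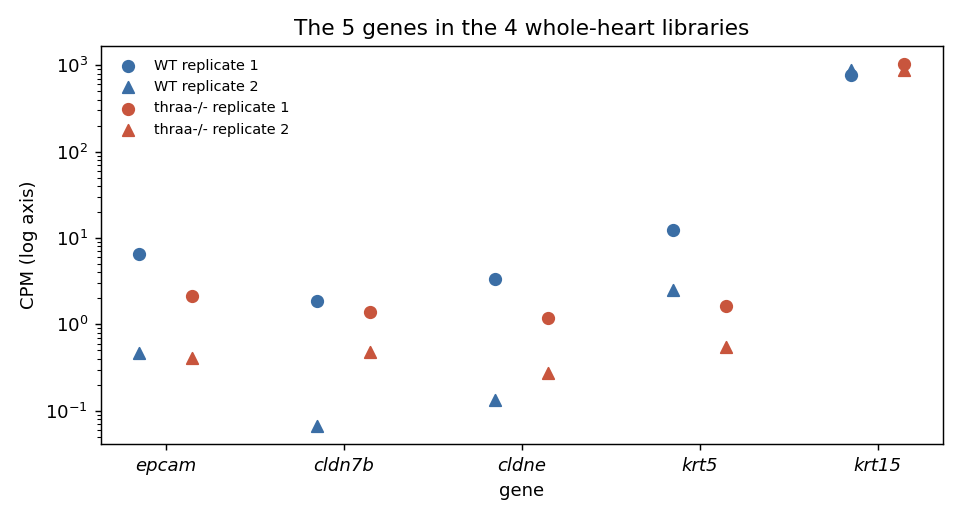
CPM (log axis) of the 5 genes in each of the 4 whole-heart libraries, WT in blue and *thraa*-/- in red, with a circle for replicate 1 and a triangle for replicate 2. For *epcam*, *cldn7b*, *cldne* and *krt5* the circle lies above the triangle in both genotypes, as for *epcam* in WT at 6.58 and 0.466 CPM, and *krt15* lies between 767.2 and 1030 CPM.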

How the data were processed

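The authors trimmed and aligned the paired reads to GRCz11 with STAR 2.7.9 and quantified them with RSEM 1.3.3, per the submitters' processing notes. The deposited tables give RSEM's expected counts, which are not normalized, and the authors' TPM, which RSEM scales within a library for length and depth. The release of the annotation is not given in the sources used here. Expected counts were rounded. Of 32520 listed genes, 29201 had a symbol. RSEM divides reads between similar genes, so levels of close paralogs among the keratins and claudins are uncertain to that extent.

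Counts were filtered with filterByExpr, scaled by TMM and tested with the robust quasi-likelihood fit of edgeR 4.0.16 (R 4.3.3), with 12 groups in 1 fit (17837 genes) and whole hearts apart (15793 genes). Genes were called at a Benjamini-Hochberg adjusted p under 0.05 over all genes and a fold of 1 or more on the absolute log2 scale, or of 1.5-fold in whole hearts, as in the study. P-values are two-sided. DESeq2 1.42.0, limma 3.58.1 on log2(TPM + 1) and log2(TPM + 0.1), other scalings and filters, a replicate block and fits without each library were tried. Groups with 3 counts or fewer, the limit that a count of 0 allows, were given a bound or a ratio with an exact 95% interval, both of which cover counting error only. Likeness used log2 CPM with a prior count of 2. Genes were named if they were 1 of the 5, among the 3 most abundant of each epithelial list, or among the 10 most alike. Some other list genes were named where they were called against the direction of their list or in uninjured hearts. The 5 genes and the lists were chosen with earlier results of these data known.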

Additional observations from a re-analysis of the deposited data

Results flagged for a closer look

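The genotype difference of 4 genes changed between times after injury. The difference between *thraa*+/- and WT hearts at 1 dpi exceeded that at 8 hpi, on the log2 scale, by 1.3 for *epcam* (standard error, SE, 0.20, edgeR adjusted p = 8.38e-06), 1.95 for *cldn7b* (SE 0.34, adjusted p = 6.1e-05), 2.26 for *cldne* (SE 0.29, adjusted p = 1.24e-07) and 2.66 for *krt5* (SE 0.11, adjusted p = 1.89e-22). At 3 dpi it exceeded that at 8 hpi by 3.07 for *epcam* (SE 0.23, adjusted p = 5.24e-12), 5.74 for *cldn7b* (SE 0.51, adjusted p = 1.31e-10), 5.45 for *cldne* (SE 0.58, adjusted p = 8.71e-10) and 8.56 for *krt5* (SE 0.13, adjusted p = 4.22e-39). With limma on log2(TPM + 0.1) the value of *epcam* at 1 dpi was 1.5 and was not called (adjusted p = 0.293). The value of *cldne* at 3 dpi rests on 3 counts in WT. For *krt15* the difference was 0.95 at 1 dpi and 0.51 at 3 dpi, under the cutoff of 1, though the value at 1 dpi passed it, between 1.02 and 1.12, with total-count scaling, on both log2(TPM) scales and without WT replicate 1 or *thraa*+/- replicate 2 of 8 hpi. This test was chosen after seeing the data, and the 4 genes passed the filter through the injured groups where they were high, so its values are a description.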

How the results depend on the processing

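Between genotypes, the number of the 5 genes called stayed at 5 at 1 dpi without any 1 library and at 4 at 3 dpi. It stayed at 0 without injury and at 8 hpi and 7 dpi, and was 0 to 1 at 15 dpi and 0 to 2 in whole hearts. With an adjusted p under 0.05 alone it was 1 without injury, 2 at 8 hpi, 1 at 7 dpi and 1 at 15 dpi. The 4 early genes passed the filter through the injured groups where they were high, so all these counts after injury are a description. In the main fit 4.9% of all genes were called higher in *thraa*+/- hearts at 1 dpi and 5.23% at 3 dpi. No label says that a replicate number marks a shared batch or day, and the deviations of same-numbered libraries correlated with r of −0.024 to 0.196 in the time course and 0.032 in whole hearts. A replicate block called 1 gene in whole hearts, *krt5* (log2FC −2.66, SE 0.32, adjusted p = 0.00189 by edgeR), and changed none of the other counts of the 5 genes.

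Without WT whole-heart replicate 1, *cldn7b* reversed, and its log2 fold change ranged from −0.994 to 3.65 without 1 library. The cause was not tested.

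The count of other epithelial genes higher after injury fell with at least 10 counts in every library, a filter that only 15 of them and *krt15* of the 5 passed: 7, 4, 2, 2 and 1 in WT and 7, 10, 8, 5 and 1 in *thraa*+/- hearts at 8 hpi and 1, 3, 7 and 15 dpi. Total-count scaling gave 27, 22 and 10 in WT at 3, 7 and 15 dpi and 22 in *thraa*+/- hearts at 7 dpi. It also moved the median log2FC of all genes up, by 0.81, 0.85 and 0.51 in WT and 0.90 in *thraa*+/- hearts. The share of all genes called under each setting is not given, so these counts are not a change of the lists alone. On log2(TPM + 1) the count of these genes was 9 and 3 in WT at 3 and 15 dpi and 4 in *thraa*+/- hearts at 15 dpi. On log2(TPM + 0.1) it was 20 in WT and 17 in *thraa*+/- hearts at 7 dpi. DESeq2 gave 3 in WT at 15 dpi. Without 1 library the ranges were 44 to 46, 37 to 40, 12 to 15, 6 to 7 and 3 to 6 in WT and 39 to 42, 48 to 49, 44 to 45, 10 to 13 and 6 to 12 in *thraa*+/- hearts. At 15 dpi the low counts were 3 without uninjured WT replicate 1, 7 without uninjured *thraa*+/- replicate 1 and 6 without *thraa*+/- replicate 2 of 15 dpi.

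Between genotypes, the count of these genes higher in mutants was 2 to 3 without injury, 1 at 8 hpi, 35 to 36 at 1 dpi, 38 to 40 at 3 dpi, 1 to 2 at 7 dpi, 3 to 5 at 15 dpi and 2 to 4 in whole hearts without 1 library. It was 1 at 7 dpi without WT replicate 1 or *thraa*+/- replicate 2, and 4 in whole hearts without WT replicate 1. With at least 10 counts in every library it was 1 without injury, 5 at 1 dpi, 5 at 3 dpi, 0 at 7 dpi and 1 at 15 dpi. On log2(TPM + 1) it was 1 without injury, 0 at 7 dpi, 1 at 15 dpi and 1 in whole hearts, and on log2(TPM + 0.1) 2 at 15 dpi and 1 in whole hearts. With an adjusted p alone it was 3 at 8 hpi, 8 at 7 dpi and 5 in whole hearts. These genotype counts of the lists were added after seeing the data.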
